A study of Mus musculus with 9 samples.

Results

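The 10 genes described here are immediate early genes that glia, vessels and neurons alike can transcribe, namely Ier2, Ier3, Ier5, Btg2, Klf2, Klf4, Klf6, Klf10, Zfp36 and Maff. They were taken by symbol from a list of such genes, mapped from Ensembl IDs, and all 10 were found among the 54532 gene IDs of the count tables. Messenger RNA was sequenced in 9 libraries of mouse striatum, the input nucleus of the basal ganglia. Of these, 3 came from cGAS-deficient mice (cGAS KO), 3 from STING-deficient mice (STING KO) and 3 from wild type (WT), all on C57BL/6J, and the design text places the brains after an ischemic stroke. Both knockouts were made with CRISPR-Cas9, and cGAS and STING are the sensor and the adaptor that answer DNA in the cytosol. Nothing in the sources used here gives age, sex, side of the brain, time after the stroke or which exons were edited, and uninjured animals were not analysed here. Whether the 3 replicates of a group are 3 animals is likewise not stated, so the spread behind each p-value is that of the libraries at hand and may be technical.

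Immediate early genes are transcribed within minutes of a stimulus, without new protein synthesis, because the factors that switch them on (SRF with its ternary complex partners, CREB, and NF-kB) already sit in the cell and need only be phosphorylated or released. Their messages are short-lived, so the pulse ends quickly. Unlike Arc or Npas4, which mark active neurons, the genes treated here respond to growth factors, shear stress, cytokines and ischemia in endothelium, astrocytes, microglia and neurons. In whole tissue their counts therefore mix several cell types, and fewer responding cells and less RNA per cell cannot be told apart.

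Library totals ranged from 14129021 to 21286775 counts. Levels are in CPM, counts scaled to a common library size with TMM factors. Cgas was at 0.262 to 1.10 CPM (4 to 19 counts) in cGAS KO and at 1.40 to 3.18 CPM in WT. Tmem173, the gene of STING, was at 1.04 to 2.18 CPM in STING KO and at 1.34 to 4.06 CPM in WT, so these ranges overlapped and the STING KO label could not be checked by this message. In each group 1 library stood apart by its few rarely counted genes: only 2280 to 4723 genes had 1 to 9 counts there, where the remaining 6 libraries had 7096 to 7927. These were replicate 2 of cGAS KO, replicate 2 of STING KO and replicate 3 of WT. They were set apart after their values were known, are called the libraries of low complexity, and results are given with and without them. Markers of striatal spiny neurons (12 genes, among them Drd1, Drd2 and Ppp1r1b) summed to 9067 to 9637 CPM in STING KO, 9135 to 11160 in cGAS KO and 5706 to 10190 in WT, so the labelled tissue was present in every library. The 8 neutrophil markers summed to at most 1.51 CPM in any library, and all 8 were at 0 in the 3 libraries of low complexity.

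The 10 genes share a compact build that the selection did not use. Their median span in the genome was 3710 bp with a median of 2.5 exons in the main transcript, against 25680 bp and 9 exons over the 14560 protein-coding genes tested. A span under 10000 bp was found for 9 of the 10, all but Maff, and for 23.2% of the tested protein-coding genes. Ier2 and Ier5 had 1 exon. The heptamer TATTTAT, the core of the AU-rich element through which ZFP36 and its relatives shorten the life of a message, was present in the 3′ UTR of 7 of the 10 main transcripts, those of Ier3, Btg2, Klf2, Klf6, Klf10, Zfp36 and Maff. On the transcribed strand it was found in 28.9% of 14340 tested protein-coding genes, or in 33.2% of the 7581 whose 3′ UTR was as long as those of the 10 genes (613 to 3111 bp). Zfp36 itself carried 3 copies and Ier3 carried 4, in 3′ UTRs of 774 and 613 bp, while Ier2, Ier5 and Klf4 had none. A match of these letters is a description, not evidence of binding. One copy from each of the 7 genes is shown because this element is what these messages have in common. The sequence comes from GENCODE M21 transcripts on GRCm38, written 5′ to 3′ with the heptamer in capitals.
Ier3, chr17:35822587-35822613, plus strand: gtaacacagaTATTTATtacgatttat
Btg2, chr1:134077250-134077276, minus strand: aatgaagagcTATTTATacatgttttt
Klf2, chr8:72320989-72321015, plus strand: aacagactgcTATTTATtggaccttag
Klf6, chr13:5868491-5868517, plus strand: ctacgtctctTATTTATgccttgagga
Klf10, chr15:38294921-38294947, minus strand: agtgtcttttTATTTATaggagttttt
Zfp36, chr7:28376927-28376953, minus strand: gattttatagTATTTATatatattggg
Maff, chr15:79358779-79358805, plus strand: tccacactctTATTTATtgcacgaatc

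Promoters were read from the RefSeq table of GRCm38.p6, which held 10 transcription starts for 8 of the 10 genes; Ier2 and Klf10 had no entry. In 300 bp windows from 250 bases before to 50 after a start, searched on both strands, the full cAMP response element TGACGTCA, the site that CREB binds, was present in Btg2 and Maff. It lay in 2 of the 10 windows of these genes, not at every start listed for Maff, and in 1.79% of the 32851 windows of the table. The CArG box, the SRF site, was present in Zfp36, in 1 of the 10 windows, and occurred in 1.63% of all windows. The GC box GGGCGG was found for all 8 genes, in 9 of their 10 windows, and in 35.7% of all windows. TGACG, which lies inside the full element, was found for 4 of the 8 (Btg2, Klf2, Klf4 and Maff). It lay in 5 of the 10 windows and in 20.8% of all windows. Neither TGANTCA (7.81% of windows), the AP-1 site, nor TATAAA (13.6% of windows) occurred in these windows for any of the 8. The upstream 250 bases of the 3 promoters with a full element are shown because these are the rarest of the elements searched. Capitals mark the cAMP response element, 166 bases before the start in Btg2 and 29 before it in Maff, and the CArG box, 58 bases before the start in Zfp36.
Btg2 promoter, chr1:134079156-134079405, minus strand: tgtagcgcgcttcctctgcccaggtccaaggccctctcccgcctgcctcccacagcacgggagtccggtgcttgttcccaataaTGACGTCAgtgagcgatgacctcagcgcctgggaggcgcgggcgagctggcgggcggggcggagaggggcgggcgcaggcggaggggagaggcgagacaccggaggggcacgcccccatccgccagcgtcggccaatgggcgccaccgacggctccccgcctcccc
Maff promoter, chr15:79347270-79347519, plus strand: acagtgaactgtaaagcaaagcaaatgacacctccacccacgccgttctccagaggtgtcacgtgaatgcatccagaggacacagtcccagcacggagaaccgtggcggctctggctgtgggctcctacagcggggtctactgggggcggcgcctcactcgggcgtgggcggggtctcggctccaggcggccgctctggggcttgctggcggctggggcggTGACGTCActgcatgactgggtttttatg
Zfp36 promoter, chr7:28379229-28379478, minus strand: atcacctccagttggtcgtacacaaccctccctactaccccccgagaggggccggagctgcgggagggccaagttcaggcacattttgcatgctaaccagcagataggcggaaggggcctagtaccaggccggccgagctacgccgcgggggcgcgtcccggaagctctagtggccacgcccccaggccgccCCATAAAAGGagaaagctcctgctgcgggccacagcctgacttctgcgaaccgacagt

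**Figure D1:**
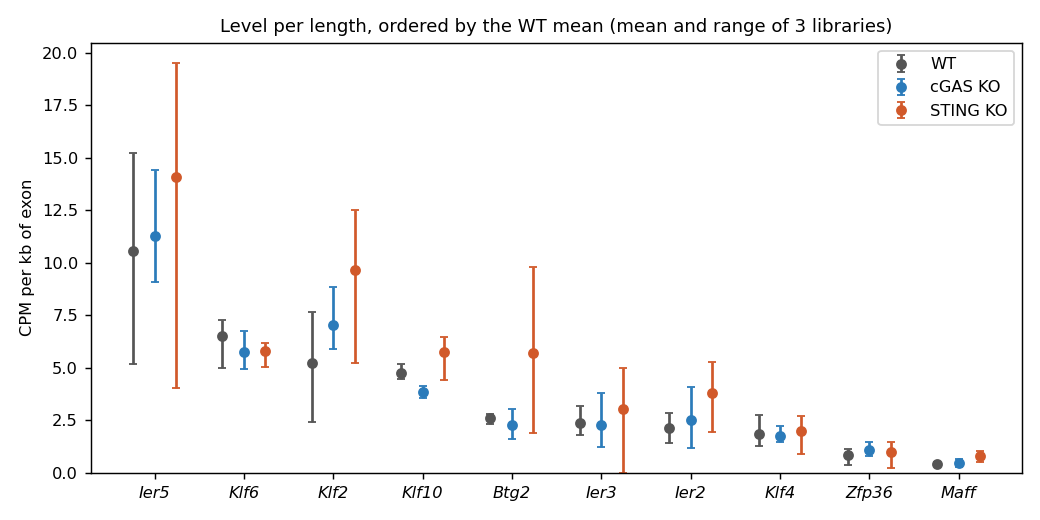
Level of the 10 genes per kb of exon (y axis, CPM per kb, linear from 0), ordered by the WT mean; points are means and bars the lowest and highest of 3 libraries in WT, cGAS KO and STING KO. Ier5 stood highest and Maff lowest in each group, and the STING KO bars were wide, from 4.06 to 19.5 for Ier5.

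Per length of exon, the 10 genes spanned a wide range of levels in WT striatum. Ier5, a nuclear protein that acts with protein phosphatase PP2A and the heat shock factor HSF1, was highest at 10.6 ± 5.05 CPM per kb (SD, n = 3). Klf6 followed at 6.51 ± 1.31, Klf2 at 5.22 ± 2.65 and Klf10 at 4.77 ± 0.36 CPM per kb, and the WT ranges of these neighbours overlapped. The WT range of Btg2, next in the order, did not overlap that of Klf10 but did overlap that of Klf2, which reached down to 2.41. The following levels were those of Btg2 (2.63 ± 0.24), Ier3 (2.40 ± 0.71), Ier2 (2.12 ± 0.71) and Klf4 (1.83 ± 0.82 CPM per kb), which overlapped in turn. Zfp36 (0.84 ± 0.40) lay below the range of Klf4 and overlapped Maff (0.43 ± 0.08 CPM per kb). The order depends on the length used, here the union of annotated exons. That union was 3470 bp for Zfp36 and 4179 bp for Klf10, where their main transcripts had 2790 and 3044 bp. The order by main transcript was not checked. Set among the 17813 tested genes with a gene model, the mean over 9 libraries put Ier5 at percentile 78.4 and Maff at percentile 13.9.

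Over the 17821 genes tested in the 9 libraries, edgeR's quasi-likelihood test called 0 genes at an adjusted p under 0.05 in each of the 3 comparisons (0% of genes), and so 0 of the 10. Comparing STING KO with WT, 9 of the 10 had a positive fold change, where 49.4% of all tested genes did, with a median log2 fold change of 0.38 against 0.00 over all genes. One of them, Btg2, had an unadjusted p under 0.05 and was higher, as did 0.898% of all genes. Comparing STING KO with cGAS KO, 9 of 10 were also positive (51.1% of all genes), with a median of 0.43 against 0.01, and Btg2 and Klf10 had an unadjusted p under 0.05 and were higher (0.825% of all genes). For cGAS KO and WT, 5 of 10 were positive (48.5% of all genes), with a median of 0.02 against -0.01, and 0 of the 10 had an unadjusted p under 0.05 (2.03% of all genes). The first and the last of these comparisons share the WT libraries, the first and the second share the STING KO libraries, and the second and the last share those of cGAS KO. DESeq2 and limma-voom also called 0 of the 10 in every comparison, where DESeq2 called 0.0447%, 0.0389% and 0.00314% of genes in the same order.

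The median of the 10 changed in size with single libraries. Between STING KO and WT it was 0.77 without STING KO replicate 2, 0.68 without WT replicate 1, 0.26 without WT replicate 3, 0.18 without STING KO replicate 1 and 0.15 without STING KO replicate 3. Between STING KO and cGAS KO it was 0.74 without STING KO replicate 2 and 0.26 without cGAS KO replicate 3, and 0.17 or 0.18 without STING KO replicate 1 or 3. STING KO replicate 2 lay below both other STING KO libraries for 9 of the 10 genes, all but Maff, against 48.9% of all tested genes. For 6 of the 10 (Ier3, Ier5, Btg2, Klf4, Klf10 and Zfp36) it lay below every WT library (27.2% of genes), and for 1, Maff, above every WT library (23.5%). It was the lowest of all 9 libraries for 4 of the 10 (19.3%).

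**Figure D2:**
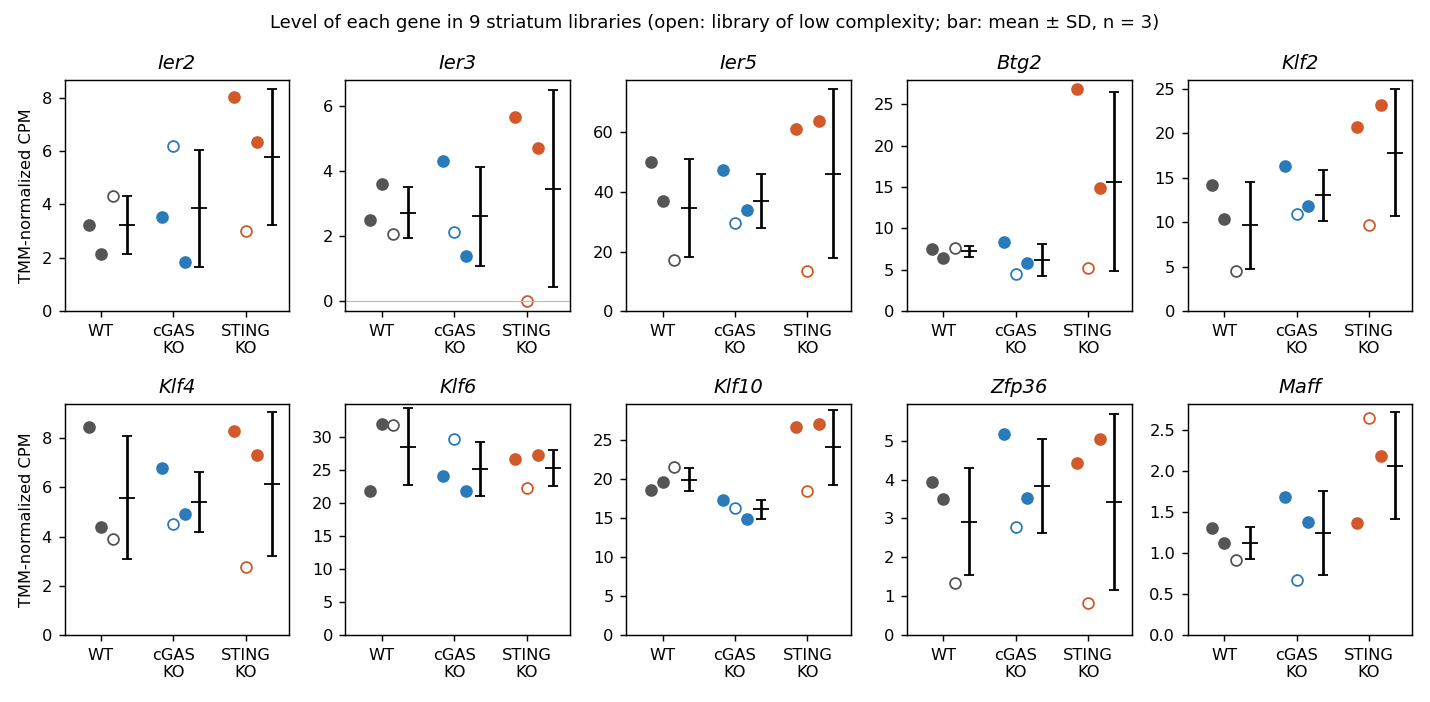
Level of each gene (y axis, TMM-normalized CPM, linear) in each library, in replicate order within a group; open circles are the libraries of low complexity, and the bars at the right of each group are the mean ± SD of 3. STING KO replicates 1 and 3 stood above the 4 filled WT and cGAS KO points for Ier2, Ier3, Ier5, Btg2, Klf2 and Klf10.

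The 3 Ier genes are small proteins named for their early response. Ier2 (ENSMUSG00000053560, chr8:84661331-84662852, minus strand, GRCm38), a nuclear protein linked to cell motility, measured 8.02, 2.997 and 6.32 CPM in STING KO replicates 1 to 3, 3.54, 6.19 and 1.83 CPM in cGAS KO and 3.21, 2.15 and 4.32 CPM in WT, always in replicate order. STING KO replicates 1 and 3 were the 2 highest of the 9 libraries, and the groups overlapped because of STING KO replicate 2. Its log2 ratio of STING KO to WT was 0.85 ± 0.52 (SE) over 9 libraries (edgeR unadjusted p = 0.137, adjusted p = 0.9999), and 1.41 ± 0.37 (SE) without the libraries of low complexity (unadjusted p = 0.00437, adjusted p = 0.583). The highest cGAS KO library for Ier2, replicate 2, was the one of low complexity, as it was for Klf6.

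Ier3 (ENSMUSG00000003541, chr17:35821684-35822923, plus strand), an apoptosis regulator induced by NF-kB, measured 5.66, 0 and 4.70 CPM in STING KO replicates 1 to 3, 4.29, 2.11 and 1.38 CPM in cGAS KO and 2.48, 3.60 and 2.05 CPM in WT. STING KO replicate 2 held 0 counts of Ier3, in a library where 3 counts would be 0.208 CPM before TMM scaling, while the other 8 libraries held 21 to 91 counts. That library had 22 tested genes at 0 counts with at least 20 in each other library, where the same was seen for 5 genes in WT replicate 3, 1 in cGAS KO replicate 2 and 0 in each of the other 6. With this library in the fit the log2 ratio of STING KO to WT had an SE of 1.04 around 0.35, and without the 3 libraries of low complexity it was 0.77 ± 0.47 (SE) (edgeR adjusted p = 0.772). limma-voom over the 9 libraries gave -1.24, so the direction was not settled.

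Ier5 (ENSMUSG00000056708, chr1:155096361-155099636, minus strand) measured 61.2, 13.3 and 63.9 CPM in STING KO replicates 1 to 3, 47.2, 29.7 and 33.8 CPM in cGAS KO and 49.9, 36.8 and 17.1 CPM in WT. The library of low complexity was the lowest of each group, and STING KO replicates 1 and 3 were the highest of the 9. The log2 ratio of STING KO to WT was 0.41 ± 0.55 (SE) over 9 libraries and 0.53 ± 0.20 (SE) over the other 6 (edgeR unadjusted p = 0.0281, adjusted p = 0.697).

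Btg2 (ENSMUSG00000020423, chr1:134075170-134079120, minus strand), an antiproliferative protein that recruits the CCR4-NOT deadenylase and a target of p53, stood furthest apart. It measured 26.9, 5.23 and 14.9 CPM in STING KO replicates 1 to 3, 8.30, 4.45 and 5.83 CPM in cGAS KO and 7.54, 6.44 and 7.64 CPM in WT. STING KO replicates 1 and 3 exceeded every other library, and STING KO replicate 2 lay below every WT library. The log2 ratio of STING KO to WT was 1.12 ± 0.50 (SE) over 9 libraries (edgeR unadjusted p = 0.0495, adjusted p = 0.9999) and 1.57 ± 0.31 (SE) over the 6 (unadjusted p = 0.000795, adjusted p = 0.447). Against cGAS KO it was 1.33 ± 0.50 (SE) (edgeR unadjusted p = 0.0248, adjusted p = 1) and 1.55 ± 0.31 (SE). The other p53 targets listed for comparison did not lie to one side over 9 libraries. By sign alone 4 of 9 tested were higher in STING KO than in WT, with a median log2 fold change of -0.17. None of the 9 had an edgeR unadjusted p under 0.05. Without the libraries of low complexity 4 of 10 tested were higher, with a median of -0.12. At an edgeR unadjusted p under 0.05, 1 was then higher and 1 lower, where 4.02% of all genes were higher.

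The Klf genes encode zinc finger factors that bind GC-rich and CACCC elements. Klf2 (ENSMUSG00000055148, chr8:72319033-72321656, plus strand), the flow-responsive factor of quiescent endothelium, measured 20.6, 9.69 and 23.1 CPM in STING KO replicates 1 to 3, 16.3, 10.9 and 11.9 CPM in cGAS KO and 14.2, 10.3 and 4.46 CPM in WT. Its log2 ratio of STING KO to WT was 0.88 ± 0.44 (SE) over 9 libraries (edgeR unadjusted p = 0.0755, adjusted p = 0.9999) and 0.83 ± 0.23 (SE) over the 6 (unadjusted p = 0.00571, adjusted p = 0.586). STING KO replicates 1 and 3 were the highest of the 9 libraries, and WT replicate 3 the lowest. Klf4 (ENSMUSG00000003032, chr4:55527143-55532466, minus strand), its partner in endothelium, measured 8.27, 2.79 and 7.32 CPM in STING KO replicates 1 to 3, 6.79, 4.53 and 4.91 CPM in cGAS KO and 8.44, 4.403 and 3.89 CPM in WT. WT replicate 1 was the highest of the 9 libraries for Klf4, and the groups overlapped in full, with a log2 ratio of STING KO to WT of 0.13 and an SE of 0.45.

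The 10 endothelial markers, among them Cldn5 and Pecam1, summed to 304 to 307 CPM in STING KO, 331 to 379 in WT and 305 to 382 in cGAS KO. The STING KO sums lay below those of WT. The mean log2 CPM of the markers overlapped, at 4.50, 4.13 and 4.46 in STING KO and 4.76, 4.70 and 4.17 in WT. Slco1a4, the marker with the highest mean, averaged 88.6 CPM in STING KO and 121 in WT. By sign alone 8 of the 10 markers were lower in STING KO than in WT and 2 were higher. Cldn5 was among the higher, with a log2 fold change of 0.29 ± 0.52 (SE). The part of endothelial RNA in the Klf2 levels was not tested. None of the 10 markers was at 0 in any library. Of 6 endothelial genes regulated by KLF2 and KLF4, 5 were tested, and 1 of them, S1pr1, was positive in STING KO against WT. The list had a median log2 fold change of -0.03 and 0 called. It was not split into genes that these factors raise and genes that they lower, so neither the count nor the median measures their activity. Without the libraries of low complexity the log2 ratio of STING KO to WT was 0.26 for Thbd and 0.19 for S1pr1. In that fit it was -0.05 for Nos3, -0.44 for Edn1 and -0.41 for Vcam1. Nos3, the endothelial nitric oxide synthase that KLF2 induces, was at 8.38 CPM on average in STING KO and at 8.48 in WT. Thbd, thrombomodulin, was at 11.1 and 11.4 CPM, where WT replicate 3, of low complexity, held 18.9 and WT replicates 1 and 2 held 7.23 and 8.21 CPM.

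Klf6 (ENSMUSG00000000078, chr13:5861482-5870394, plus strand), a factor of injury and inflammation, varied little between libraries. It measured 26.7, 22.2 and 27.2 CPM in STING KO replicates 1 to 3, 24.1, 29.7 and 21.8 CPM in cGAS KO and 21.9, 31.95 and 31.8 CPM in WT. Its log2 ratio of STING KO to WT was -0.17 ± 0.21 (SE) over 9 libraries and 0.00 ± 0.20 (SE) over the 6, so any difference was smaller than the spread between libraries.

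Klf10 (ENSMUSG00000037465, chr15:38291463-38300706, minus strand), also called TIEG1 for its early induction by TGF-beta, measured 26.6, 18.5 and 27.1 CPM in STING KO replicates 1 to 3, 17.3, 16.2 and 14.9 CPM in cGAS KO and 18.6, 19.6 and 21.6 CPM in WT. All 3 STING KO libraries lay above all 3 cGAS KO libraries, as for 3.63% of tested genes. All 3 cGAS KO libraries lay below all 3 WT libraries, as for 4% of tested genes. STING KO overlapped WT through replicate 2. Against cGAS KO, the STING KO log2 fold change was 0.58 ± 0.20 (SE) (edgeR unadjusted p = 0.0187, adjusted p = 1), and 0.74 ± 0.16 (SE) without the libraries of low complexity (unadjusted p = 0.0016, adjusted p = 0.926). In cGAS KO against WT it was -0.30 ± 0.20 (SE) (edgeR unadjusted p = 0.167, adjusted p = 0.9999).

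Zfp36 (ENSMUSG00000044786, chr7:28376784-28380253, minus strand) encodes tristetraprolin, which binds AU-rich elements and destroys cytokine messages, its own included. It measured 4.42, 0.84 and 5.03 CPM in STING KO replicates 1 to 3, 5.16, 2.79 and 3.54 CPM in cGAS KO and 3.93, 3.49 and 1.34 CPM in WT. These are 12 to 90 counts, the library of low complexity was the lowest in each group, and the 3 groups overlapped. Its log2 ratio of STING KO to WT was 0.23 ± 0.63 (SE) over 9 libraries and 0.35 ± 0.29 (SE) over the 6. Gm44710, an antisense gene that overlaps Zfp36 by 1274 bp, held at most 0.60 CPM in any library, and the counter's strand setting is not stated in the sources. Of 10 messages that ZFP36 is known to destabilise, 1 (Ptgs2) passed the count filter. Tnf, Il10, Csf2 and Cxcl2 had 0 counts in all 9 libraries, Il1b averaged 0.16 CPM and Ccl3 averaged 0.30 CPM.

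Of the 3 relatives of Zfp36 that were not among the 10 genes, Zfp36l1 and Zfp36l2 had more counts than Zfp36, and Zfp36l3 had 0 to 4 a library. Zfp36l1, a paralog with the same zinc fingers, averaged 19.6 CPM in STING KO, 13.5 in cGAS KO and 11.8 in WT. All 3 STING KO libraries lay above all 3 WT libraries, as for 2 of the 22 tested relatives and 3.4% of all tested genes. The log2 ratio of STING KO to WT for Zfp36l1 was 0.73 ± 0.25 (SE) (edgeR unadjusted p = 0.0167, adjusted p = 0.9999). Zfp36l2 averaged 31.3 CPM in STING KO and 22.8 in WT, with a log2 fold change of 0.46 and an SE of 0.25. Both paralogs were named after their values were seen.

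Maff (ENSMUSG00000042622, chr15:79346621-79359076, plus strand), a small Maf protein that pairs with NRF2 and other CNC factors, had the fewest counts of the 10 per length, 9 to 39 a library. It measured 1.37, 2.65 and 2.18 CPM in STING KO replicates 1 to 3, 1.68, 0.68 and 1.38 CPM in cGAS KO and 1.31, 1.13 and 0.92 CPM in WT. Maff was the 1 gene of the 10 in which all 3 STING KO libraries lay above all 3 WT libraries, as did 3.4% of tested genes, and the margin was 1.37 against 1.31 CPM. Here STING KO replicate 2 was the highest library, unlike for the other 9 genes. The log2 ratio of STING KO to WT was 0.87 ± 0.51 (SE) over 9 libraries (edgeR unadjusted p = 0.116, adjusted p = 0.9999) and 0.54 ± 0.40 (SE) over the 6.

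**Figure D3:**
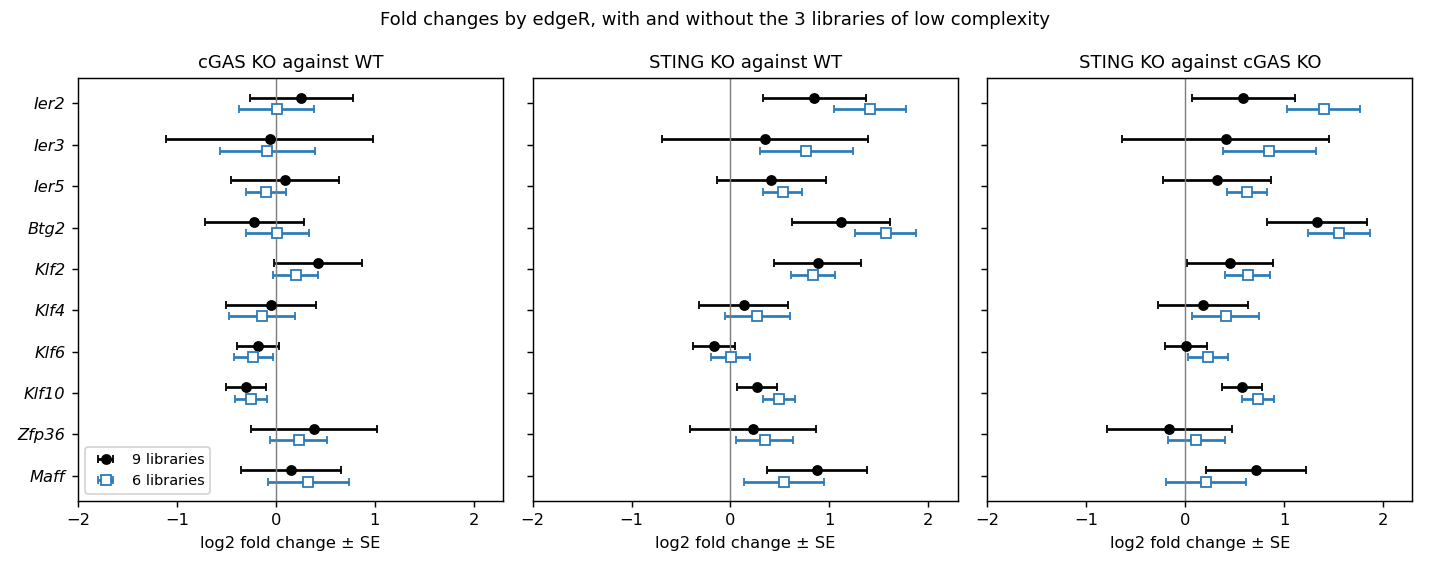
Log2 fold change ± SE (x axis) of each gene by edgeR in the 3 comparisons, over all 9 libraries (filled circles) and over the 6 without low complexity (open squares). For STING KO and WT all 10 squares lie at or above 0, from 0.00 for Klf6 to 1.57 for Btg2, with shorter bars than the circles.

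Without the 3 libraries of low complexity, edgeR tested 17657 genes and all 10 fold changes of STING KO over WT were positive, where 50.2% of all genes were, with a median log2 fold change of 0.53. For Klf6 that value was 0.0015, in effect 0. Of the 10, 5 had an unadjusted p under 0.05 and were higher (Ier2, Ier5, Btg2, Klf2 and Klf10), where 4.02% of all genes were. Against cGAS KO all 10 were again positive (50.8% of all genes), with a median of 0.63, and the same 5 genes had an unadjusted p under 0.05 (1.99% of all genes). None of the 10 was called at an adjusted p under 0.05 in this fit, in which 0.0227% of genes were called against WT and 0.017% against cGAS KO. On the scale of the 9 libraries, both remaining STING KO libraries lay above all 4 remaining WT and cGAS KO libraries for 6 of the 10, the same 5 and Ier3, where 8.55% of tested genes did.

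limma-voom with library quality weights, which gives libraries far from the rest less weight, called 3 of the 10 between STING KO and WT, and 0.999% of all genes. These were Klf2 (log2 fold change 1, limma adjusted p = 0.0324), Ier2 (1.49, limma adjusted p = 0.0363) and Btg2 (1.42, limma adjusted p = 0.0498). Over all alternatives the adjusted p ranged from 0.0324 to 1 for Klf2, from 0.0363 to 1 for Ier2 and from 0.0498 to 1 for Btg2. Between STING KO and cGAS KO it called Klf10 (0.80, limma adjusted p = 0.0294, range 0.0294 to 1 over the alternatives) and 0.163% of all genes. Between cGAS KO and WT it called 0 of the 10.

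**Figure D4:**
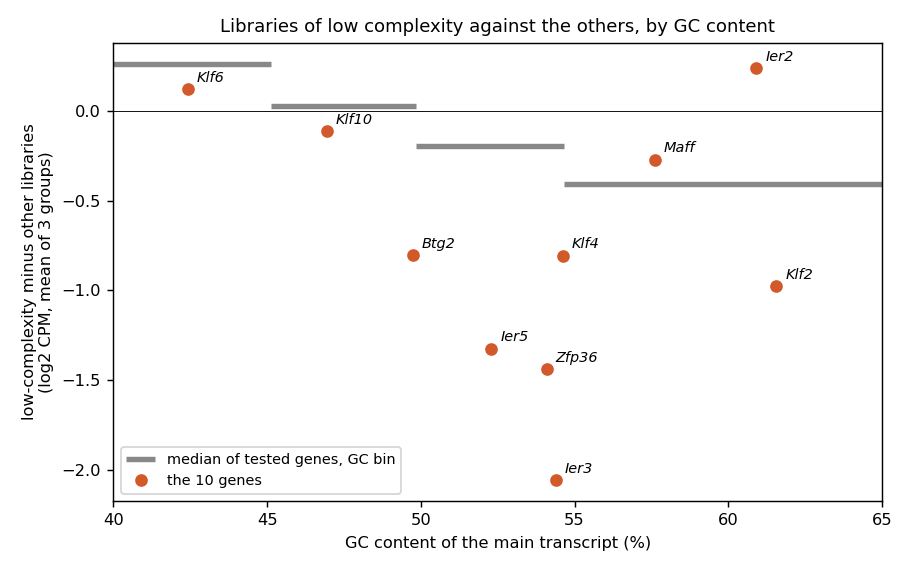
Difference in log2 CPM between the library of low complexity and the other 2 of its group, averaged over the 3 groups (y axis), against the GC content of the main transcript (x axis, drawn from 40%); points are the 10 genes and grey bars the median of all tested genes in each of 4 bins of equal size by GC content. The bin medians step down from 0.26 to -0.41, and 8 of the 10 genes lie below the bar of their bin.

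The libraries of low complexity held less of most of the 10 genes. Averaged over the 3 groups, the difference in log2 CPM between them and the other libraries had a median of -0.80 over the 10, against -0.07 over all tested genes. It was -2.06 for Ier3, -1.44 for Zfp36, -1.32 for Ier5 and -0.98 for Klf2, and 0.24 for Ier2 and 0.12 for Klf6. The average hides unlike groups. In STING KO, WT and cGAS KO the difference was -5.45, -0.52 and -0.20 for Ier3 and -1.91, 0.13 and -0.63 for Btg2. In the same order it was -1.215, 0.69 and 1.24 for Ier2 and -1.16, -1.42 and -0.35 for Klf2. Across all tested genes the averaged difference moved with base composition. With genes in 4 bins of equal size by GC content of the main transcript, its median was 0.26 in the lowest bin and -0.41 in the highest, from 54.7% GC upward. The 10 genes had a median GC content of 54.2%, against 50.5% over tested protein-coding genes, and 7 of them were in the upper 2 bins. The part of base composition in the low values of STING KO replicate 2 was not tested.

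**Figure D5:**
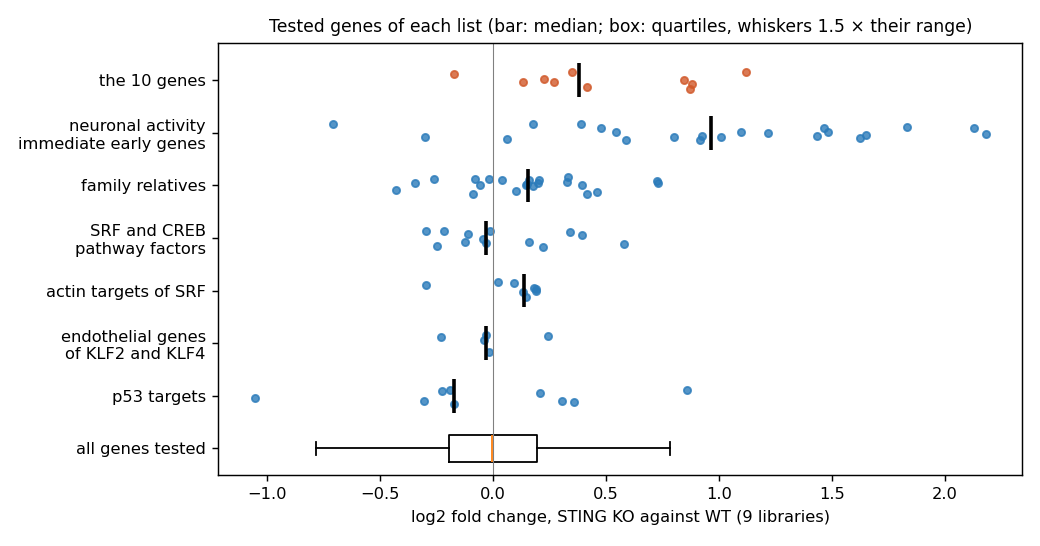
Log2 ratio of STING KO to WT over 9 libraries (x axis) for the tested genes of each list, with a black bar at the list median and a box for all 17821 genes tested. The 10 genes have a median of 0.38, between the 0.97 of the neuronal activity genes and the -0.03 of the SRF and CREB pathway factors.

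Set beside other lists, the 10 genes stood between a list of neuronal activity immediate early genes and the rest of their own families. The neuronal activity list holds Fos, Junb, Egr1 and Dusp1 beside Arc and Npas4, and the counts do not tell which cells made these messages. Of 22 neuronal activity genes 20 were positive in STING KO against WT, with a median log2 fold change of 0.97, and 14 had an unadjusted p under 0.05 and were higher, where 0.898% of all genes were. Of 22 tested relatives of the 10 genes (Klf, Btg, Tob, Zfp36 and Maf families), 15 were positive with a median of 0.15, and Zfp36l1 alone had an unadjusted p under 0.05. Without the libraries of low complexity 18 of the 22 relatives were positive, with a median of 0.13, and 5 were higher at an edgeR unadjusted p under 0.05. All 22 neuronal activity genes were positive in that fit, with a median of 1.04, and 18 were higher at that p. Of all genes 50.2% were positive and 4.02% were higher at that p. Klf9 and Klf13, the relatives with the most counts, averaged 246 and 194 CPM in STING KO and 260 and 232 in WT. edgeR called 0 genes of each of these lists over the 9 libraries, and without the libraries of low complexity it called 2 neuronal activity genes, Arc and Junb (adjusted p = 0.0283 for each). The difference between the lists was not tested.

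Srf itself, the factor that binds the CArG box, measured 83.8, 66.9 and 80.4 CPM in STING KO replicates 1 to 3. It measured 72.1, 69.5 and 71.0 CPM in cGAS KO and 55.2, 54.0 and 45.2 CPM in WT. All 3 STING KO libraries lay above all 3 WT libraries, as for 3.4% of tested genes. Its log2 ratio of STING KO to WT was 0.58 ± 0.16 (SE) over 9 libraries (edgeR unadjusted p = 0.00436, adjusted p = 0.9999) and 0.59 ± 0.12 (SE) over the 6 (unadjusted p = 0.000986, adjusted p = 0.447). The log2 ratio of cGAS KO to WT was 0.46 ± 0.16 (SE) over 9 libraries (edgeR unadjusted p = 0.0153, adjusted p = 0.9999). That of STING KO to cGAS KO was 0.12 ± 0.16 (SE). Srf was named after its values were seen. Of 13 SRF, CREB and MAP kinase pathway genes 5 were positive in STING KO against WT, with a median of -0.03, and Srf alone was higher at an unadjusted p under 0.05. Of 8 tested actin and smooth muscle targets of SRF 7 were positive, with a median of 0.14. In cGAS KO against WT the neuronal activity genes had a median of 0.36, the relatives 0.05 and the 10 genes 0.02.

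Markers of the cell types that could carry these messages were measured beside them. Microglial markers (10 genes) summed to 287 to 404 CPM in STING KO and 274 to 411 in WT, and astrocyte markers (10 genes) to 4454 to 5640 CPM and 4936 to 8065 CPM. Mural cell markers (8 genes) summed to 220 to 283 CPM in STING KO and 268 to 298 in WT. Cortical glutamatergic neuron markers (8 genes) summed to 381 to 750 CPM in STING KO and 206 to 1307 in WT, with no marker at 0. Border and infiltrating macrophage markers (6 genes) summed to 17.1 to 26.7 CPM in STING KO and 15.8 to 23.8 in WT. Choroid plexus markers (6 genes, among them Ttr) differed most between libraries, from 61.7 to 459 CPM in STING KO and from 31.8 to 2737 in WT, where replicate 1 held the 2737. Over all 9 libraries these sums overlapped between STING KO and WT, and the endothelial list did so only by the mean log2 CPM of its markers. Without the libraries of low complexity, none of the 6 sums given here overlapped, while those of spiny neurons and oligodendrocytes did. STING KO replicates 1 and 3 then lay below WT replicates 1 and 2 for mural cells (225 and 220 against 268 and 282 CPM), astrocytes (4454 and 4599 against 4936 and 5626 CPM) and macrophages (17.8 and 17.1 against 21.4 and 23.8 CPM). Microglial sums were 404 and 388 against 411 and 411 CPM, and those of the choroid plexus 80.0 and 61.7 against 2737 and 119 CPM. Cortical neuron sums were higher, 750 and 599 against 206 and 577 CPM. A sum follows its most abundant markers. By the mean log2 CPM of the markers in the same libraries, microglia were higher in STING KO (4.89 and 4.82 against 4.81 and 4.80). Macrophages (0.26 and 0.11 against 0.20 and 0.38) and cortical neurons (5.46 and 5.32 against 3.60 and 5.38) overlapped by that mean. Mural cells, astrocytes and the choroid plexus were again lower. How many genes split this way was not counted. In the fit without the libraries of low complexity, all 6 choroid plexus markers were lower in STING KO at an edgeR unadjusted p under 0.05. Their median log2 fold change was -3.63, and edgeR called 0 of them at an adjusted p under 0.05. The part of these cell types in the levels of the 10 genes was not tested.

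Across the 9 libraries the 10 genes fell into patterns that were not alike. As a description, the Pearson correlation of log2 CPM with the mean of the other 9 genes was highest for Ier5 (0.85), Btg2 (0.83) and Klf4 (0.80), and was 0.00 for Klf6 and -0.03 for Maff. Ier5 and Zfp36 had the closest pair of profiles (0.96), followed by Ier5 and Klf4 (0.93). These are 9 points that share depth and the split into libraries of low complexity. Among 11995 other genes with a mean of at least 5 CPM, those most like the mean profile of the 10 were G6pc3 (Pearson r = 0.955), Noct (0.949), Gnas (0.946), Zpr1 (0.945) and Gpr61 (0.944). Next were Akirin2 (0.942), Tent4a (0.940), Ybx3 (0.939), Gadd45g (0.935) and Dvl1 (0.931).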

How the data were processed

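Libraries from polyadenylated striatal RNA were read in pairs on an Illumina sequencer, per the labels' protocols. HISAT2, featureCounts and mm10 are named in the submitters' processing notes. Versions, annotation release, strand setting and handling of multi-mapped reads: not given in the sources used here. The authors deposited raw counts for 54532 Ensembl IDs, of which 54495 matched GENCODE M21 (GRCm38, the assembly of mm10).

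Counts were tested with edgeR 4.0.16 (R 4.3.3): quasi-likelihood F test, all 9 libraries in 1 fit, TMM factors, filterByExpr (17821 genes), Benjamini-Hochberg over all genes tested, threshold 0.05. The SE was taken from the fold change and its F statistic. Log2 CPM used a prior count of 2. Levels per kb used the union of annotated exons, and the main transcript was the best APPRIS principal one. Alternatives were DESeq2 1.42.0, limma-voom (limma 3.58.1) with and without quality weights, other scalings and filters, the 6 libraries compared, the replicate block, leaving out each library, and low complexity left out or as a covariate. Methods were tested on simulated counts.

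The 10 genes and all lists were chosen with earlier results of these data known. The rule for named genes was all 10, any gene of another list past the threshold, otherwise up to 2 of a list with the highest mean CPM, and the 10 genes most like the mean profile; other genes were named after their values were seen. No 2 libraries of a group agreed within sampling noise, with a chi-square per degree of freedom of at least 8.67. A floor of 3 counts was 0.141 to 0.212 CPM, for counting error only.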

Additional observations from a re-analysis of the deposited data

How the results depend on the processing

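Counts were few for Maff, Zfp36, Ier3 and Ier2, 0 to 129 a library, so small differences in them may have been missed. For STING KO against WT over 9 libraries their SE was 0.51, 0.63, 1.04 and 0.52, in that order. For the other genes it ran from 0.20 for Klf10 to 0.55 for Ier5, which had 191 to 1143 counts a library. The part of depth in these SEs was not tested. As edgeR over 9 libraries called 0 of the 10 genes, no call could be lost. The number of all genes called, 0 by edgeR over 9 libraries, was 1 by DESeq2 and 4 by limma-voom with quality weights in cGAS KO against WT. In STING KO against WT it was 10 by DESeq2, 4 by edgeR without a count filter, 178 by limma-voom with quality weights, 4 without the 3 libraries of low complexity and 1 with low complexity as a covariate. In STING KO against cGAS KO these counts were 8, 4, 29, 3 and 1. The number of the 10 genes called, 0 in the main setting, was 3 between STING KO and WT and 1 between STING KO and cGAS KO by limma-voom with quality weights, and 0 elsewhere.

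Deviations of same-numbered libraries had correlations of -0.447 to 0.502 over genes, and those of differently numbered ones -0.516 to 0.533. Between STING KO and cGAS KO the same-numbered correlations were 0.502, 0.469 and 0.0603, and in both groups replicate 2 was the library of low complexity. Whether the numbers pair the samples cannot be settled by this check. With the replicate block, edgeR called 0 genes in each comparison, and the median of the 10 genes was 0.28 between STING KO and WT, 0.37 between STING KO and cGAS KO and 0.04 between cGAS KO and WT.

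Leaving out 1 library called 0 genes in each comparison. The median of the 10 genes then ranged from 0.15 to 0.77 in STING KO against WT, from 0.17 to 0.74 in STING KO against cGAS KO and from -0.14 to 0.28 in cGAS KO against WT. Some signs turned. In cGAS KO against WT, Btg2 turned to 0.016 and Ier5 to -0.10 without the 3 libraries of low complexity. With quality weights Ier2 turned to -0.0644, Ier5 to -0.14 and Klf4 to 0.0070. In STING KO against WT, Ier3 turned to -1.24 and Zfp36 to -0.0050 by limma-voom, Ier3 to -0.0049 with the replicate block and to -0.0162 with low complexity as a covariate, and Klf6 to 0.0015 without the 3 libraries. In STING KO against cGAS KO, Ier3 turned to -1.08 by limma-voom, and Zfp36 to 0.34 with quality weights and 0.11 without the 3 libraries. Leaving out 1 library gave ranges that crossed 0, in cGAS KO against WT, of -0.25 to 0.60 for Ier2, -0.64 to 0.25 for Ier3, -0.23 to 0.46 for Ier5, -0.25 to 0.39 for Klf4 and -0.12 to 0.45 for Maff. Between STING KO and WT they were -0.19 to 0.93 for Ier3, -0.14 to 0.57 for Klf4 and -0.15 to 0.68 for Zfp36, and between STING KO and cGAS KO -0.132 to 0.996 for Ier3, -0.10 to 0.53 for Klf4, -0.0808 to 0.141 for Klf6 and -0.54 to 0.30 for Zfp36. The cause of these changes was not tested.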
